A study of Mus musculus with 48 samples.

Results

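The effect of KPC pancreatic tumors on the tibialis anterior muscle at 20:00, circadian time 38 (CT38), was taken from 8 of 48 RNA-seq libraries: the 4 libraries from KPC mice against the 4 from control mice, with genotype as a covariate. These 8 libraries were chosen by their labels alone and fell into 4 groups of 2 mice each. WT control and FoxP1SkmKO control mice were male, 39 to 55 weeks old by the labels, and had received 50 µl of saline into the pancreas, and WT KPC and FoxP1SkmKO KPC mice of the same age and sex had received murine KPC pancreatic cancer cells in the same volume, which grow into orthotopic tumors. FoxP1SkmKO mice were homozygous for a floxed Foxp1 allele and carried Acta1-cre, so the recombinase was driven by a promoter of skeletal muscle fibers and the other cells of the muscle kept Foxp1. WT mice carry the genotype label C57BL/6J, while the series record describes them as floxed mice without Cre, and the ages given in the sources also differ, so neither is settled here. All mice had been moved from a light/dark cycle with lights on at 6 am into constant darkness, and CT38 falls shortly after the usual time of lights off, when mice become active. The other 40 libraries, from the same 4 kinds of mice at CT18, CT22, CT26, CT30, and CT34, were used only to compare the tumor effect at CT38 with the effect at the other 5 times.

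Cachexia is the loss of muscle and fat that accompanies many cancers. Cytokines from the tumor and the host reach muscle through the blood and act through receptors coupled to JAK kinases and STAT factors, and glucocorticoids and the FoxO factors also switch on genes that restrain growth and promote protein breakdown. C/EBP factors, among the first genes that answer such signals, are transcription factors of the acute-phase response. The extracellular matrix around the fibers is made mainly by resident fibroblasts and, at the tendon, by tendon cells, and fibrillar collagens are its most abundant proteins. Much of this biology is rhythmic, since glucocorticoids and feeding both follow the clock.

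Total counts on genes ranged from 15318470 to 16993357 in the 8 libraries, with 19382 to 21497 genes detected, and mice of a group differed by 6.02 to 11.6 times the variance that counting alone gives, so no library was a copy of another. Foxp1, the targeted gene (mm39 chr6:98902299-99499682), was at 0.648 and 0.571 FPKM in WT control, 0.693 and 0.749 in WT KPC, 0.521 and 0.642 in FoxP1SkmKO control, and 0.496 and 0.503 in FoxP1SkmKO KPC mice. FPKM is the count scaled to gene length and library size. The control mice of both genotypes overlapped, while WT KPC mice were above and FoxP1SkmKO KPC mice below every other mouse. Since the gene count sums recombined and intact exons over all cell types, it does not check the genotype labels. Markers of skeletal muscle fibers (Acta1, Ckm, Ttn, and others) summed to between 47910.3 and 57854.8 FPKM in every library, while markers of pancreatic acinar cells summed to at most 0.217 FPKM and carcinoma epithelium markers to at most 0.737 FPKM. Single libraries differed in several ways. FoxP1SkmKO control replicate 2 had the most genes detected and 50 genes more than 2-fold above each of the other 7, among them Sln at 20.3 FPKM against at most 2.06 elsewhere, Chrna1 at 14.1 against at most 3.49, and Alb at 3.60 against at most 0.183. WT control replicate 1 had the highest summed levels of tendon and Schwann cell markers, and these 2 control libraries were chosen, after the data were seen, to be left out together. WT KPC replicate 1 had the most genes, 45, more than 2-fold below each of the other 7, and the mean correlation of a library with the other 7 was between 0.980 and 0.985, lowest in FoxP1SkmKO control replicate 2. In whole muscle, fewer cells of a type and less RNA per cell cannot be told apart.

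Of 14216 genes tested at CT38, 86 (0.605%) were higher and 63 (0.443%) lower in KPC mice, 149 (1.05%) in all, by edgeR's quasi-likelihood test with a Benjamini-Hochberg adjusted p under 0.05. The genes that rose were led by the transcription factor Cebpd, the mTORC1 inhibitor Ddit4, and the cytokine receptor subunits Csf2rb and Csf2rb2, and the genes that fell were led by the fibrillar collagens. At an unadjusted p under 0.05 there were 1804 genes. Single mice weighed on the count of 149, which was 46 without WT KPC replicate 2, 65 without WT control replicate 1, 68 without FoxP1SkmKO KPC replicate 1, 99 without WT control replicate 2, 173 without WT KPC replicate 1, and 69 without both control libraries named above. Across all genes the median log2 fold change was -0.0063, and the 4 KPC libraries lay wholly above the 4 control libraries for 432 genes (3.04%) and wholly below them for 481 (3.38%). Among the called genes, 74 of the 86 and 58 of the 63 were separated in this way. The gene lists described next hold fewer members than were listed where counts were too low to test: 29 of 32 JAK-STAT genes, 18 of 20 glucocorticoid-responsive genes, 27 of 28 interferon-induced genes, 34 of 44 collagens, and 25 of 27 matrix genes were tested. Called members of every list below stand beside the 0.605% that rose and 0.443% that fell over all genes. The lists were chosen with earlier results of these data known, so these shares are a description and no independent test.

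**Figure D1:**
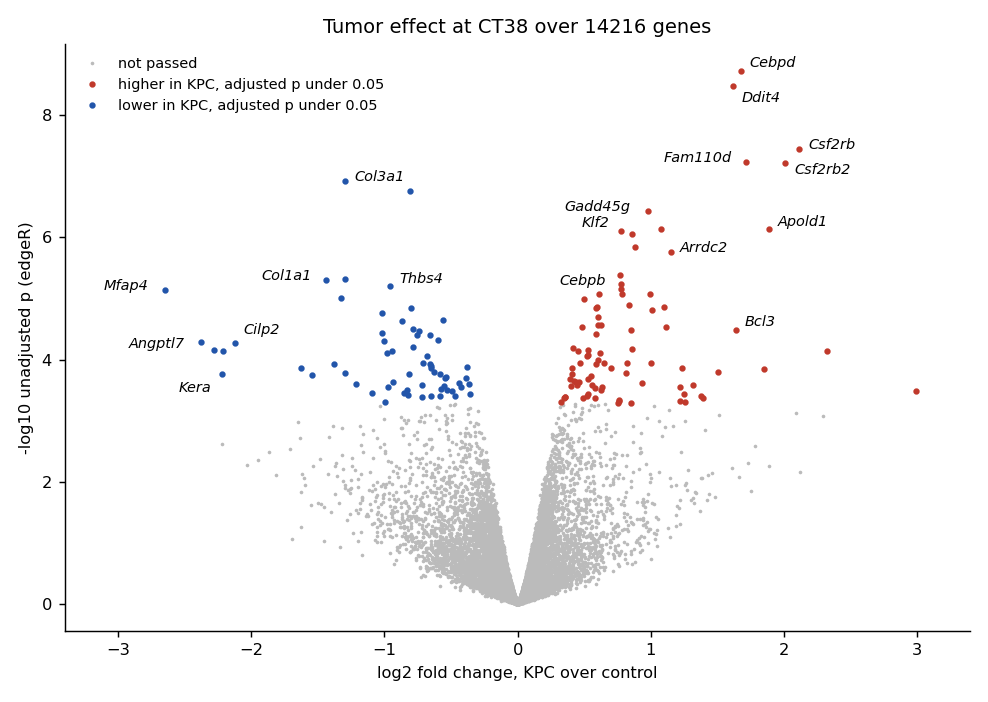
Log2 fold change of KPC over control at CT38 against -log10 of the unadjusted edgeR p for each of 14216 genes (one point each). Red points are the 86 genes called higher and blue points the 63 called lower, with Cebpd and Ddit4 at the top and Mfap4 the farthest to the left.

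Cebpd and Cebpb, which encode C/EBPδ and C/EBPβ, transcription factors induced by inflammatory cytokines and glucocorticoids, both rose. Values of single mice are listed in the order WT replicate 1, WT replicate 2, FoxP1SkmKO replicate 1, and FoxP1SkmKO replicate 2. Cebpd (ENSMUSG00000071637, mm39 chr16:15705150-15708895) was at 2.68, 1.96, 2.03, and 2.43 FPKM in control mice and at 6.58, 8.57, 7.92, and 6.24 FPKM in KPC mice. The lowest KPC mouse was far above the highest control mouse, in both genotypes, and the means were 2.28 ± 0.339 and 7.33 ± 1.10 FPKM (SD, n = 4). The log2 fold change was 1.68 (SE 0.13, edgeR adjusted p = 2.37e-05), and it stayed between 1.59 and 1.76 when each of the 8 libraries was left out in turn. Cebpb (mm39 chr2:167530835-167532338) was at 49.4, 42.3, 43.2, and 40.6 FPKM in control mice and 81.8, 81.3, 86.0, and 53.4 FPKM in KPC mice, a log2 fold change of 0.77 (SE 0.11, edgeR adjusted p = 0.00485). FoxP1SkmKO KPC replicate 2 lay apart from the other 3 KPC mice but above every control mouse. The other members tested, Cebpa and Cebpg, had log2 fold changes of 0.37 and -0.04 and did not pass.

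**Figure D2:**
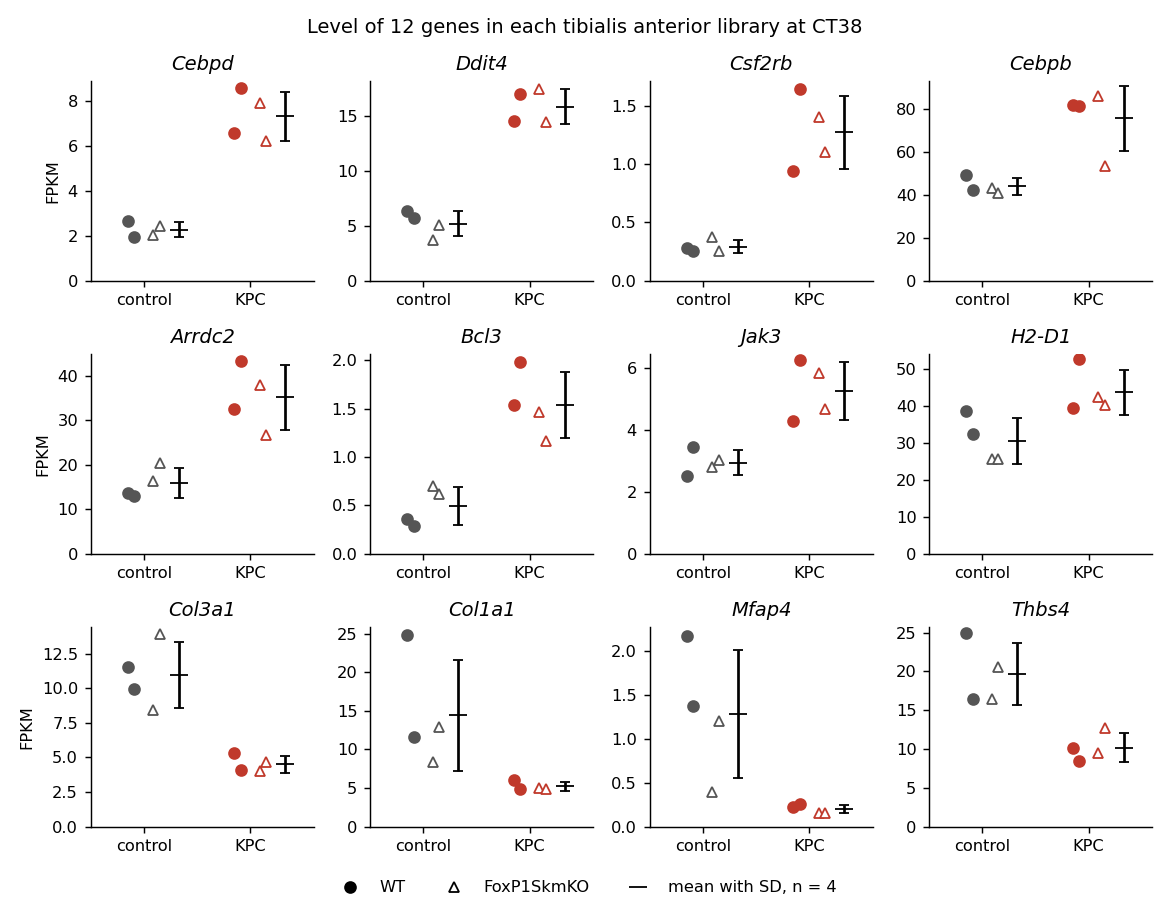
FPKM of 12 genes in each of the 8 libraries at CT38 (y axis, from 0), control in grey and KPC in red, with circles for WT and open triangles for FoxP1SkmKO mice and the mean with SD of 4 libraries to the right. In each panel the 4 KPC libraries lie wholly above or wholly below the 4 control libraries.

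In the JAK-STAT pathway, through which many cytokines signal, 8 of 29 genes tested rose, 21 did not pass, and none fell, against 0.605% of all genes that rose. The median log2 fold change over the list was 0.331, and Lifr, Stat5a, Tyk2, and Jak1 were below 0. Of the 8, 4 encode receptor subunits. Csf2rb (mm39 chr15:78209952-78238047), the shared signaling subunit of the receptors for IL-3, IL-5, and GM-CSF, was at 0.284, 0.256, 0.373, and 0.255 FPKM in control mice and 0.938, 1.64, 1.41, and 1.10 in KPC mice, a log2 fold change of 2.11 (SE 0.20, edgeR adjusted p = 0.000171). The 2 groups did not overlap, but the gene remained at a low level in both. Its neighbor Csf2rb2 (mm39 chr15:78166707-78189921), an IL-3 receptor subunit of nearly the same sequence, changed by 2.01 (SE 0.20, edgeR adjusted p = 0.000173), and since reads could be split between the pair, the share of each is uncertain. Osmr, the receptor for oncostatin M, was at 0.764, 0.765, 0.839, and 0.734 FPKM in control and 1.07, 2.06, 1.69, and 1.46 FPKM in KPC mice (log2 fold change 1.01, SE 0.16, edgeR adjusted p = 0.00685). Il4ra, the receptor chain shared by IL-4 and IL-13, changed by 0.93 (edgeR adjusted p = 0.0328).

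Downstream of the receptors, the kinase Jak3, which pairs with the common gamma chain, was at 2.49, 3.44, 2.80, and 3.01 FPKM in control mice and 4.27, 6.26, 5.85, and 4.66 in KPC mice (log2 fold change 0.84, SE 0.13, edgeR adjusted p = 0.00666). Of the feedback inhibitors on the list, Socs3 and Cish rose, while Socs1 at 0.42 (edgeR adjusted p = 0.713) and Socs2 at 0.24 (edgeR adjusted p = 0.575) did not pass. Socs3, induced by STAT3, was at 1.14, 0.734, 0.699, and 0.915 FPKM in control and 1.23, 2.92, 2.44, and 1.61 FPKM in KPC mice, so that WT KPC replicate 1 lay just above the highest control mouse (log2 fold change 1.22, SE 0.26, edgeR adjusted p = 0.0346). Cish, a STAT5 target, was at 3.47, 2.30, 2.11, and 1.10 FPKM in control and 6.97, 6.73, 2.58, and 3.57 FPKM in KPC mice, with FoxP1SkmKO mice lower than WT mice in both arms and the groups overlapping (log2 fold change 1.10, SE 0.17, edgeR adjusted p = 0.00666). Pim3, a serine/threonine kinase gene also listed here, rose by 0.61 on the log2 scale (edgeR adjusted p = 0.00509). Il6ra at 0.50 and Stat3 at 0.29 did not pass. Without 1 library the number of members that rose ranged from 6 to 9, and without FoxP1SkmKO control replicate 2 there were 8 that rose and 1 that fell.

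Of the 86 genes that rose, 62 matched a RefSeq promoter of 300 bases (250 before and 50 after a start site, build GRCm38.p6). The letters TTCNNNGAA, the core of a STAT site and the same on both strands, were present in 11 of these 62 (17.7%), in 1 of 45 promoters of the genes that fell (2.22%), and in 8.16% of the promoters of all tested genes. The letters of other motifs were also looked for. Those of C/EBP and NF-kB were in 0 of the 62 and 0 of the 45, against 0.3% and 0.193% of promoters of all tested genes. D-box letters were in 0% and 2.22%, against 0.667%. Forkhead letters were in 1.61% and 4.44%, against 3.19%, and metal response letters in 25.8% and 24.4%, against 30.3%. Glucocorticoid response elements and E-boxes are given further below. These shares are a description, and a match to letters is not a bound site. Stretches of 60 bases from 6 genes that rose are shown, on the strand of the gene and upstream of the start site, with the STAT match in capitals.
Socs3, chr11:117969487-117969546, minus strand: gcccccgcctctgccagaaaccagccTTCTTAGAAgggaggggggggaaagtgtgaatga
Per1, chr11:69099916-69099975, plus strand: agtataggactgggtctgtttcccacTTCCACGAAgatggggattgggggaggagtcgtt
Csf2rb2, chr15:78305722-78305781, minus strand: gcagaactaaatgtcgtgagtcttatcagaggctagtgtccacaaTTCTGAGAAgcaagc
Tgtp1, chr11:48992301-48992360, minus strand: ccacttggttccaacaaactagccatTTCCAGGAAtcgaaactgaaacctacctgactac
Tnfrsf1a, chr6:125349473-125349532, plus strand: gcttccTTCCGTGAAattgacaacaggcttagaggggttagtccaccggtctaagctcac
Apold1, chr6:134981892-134981951, plus strand: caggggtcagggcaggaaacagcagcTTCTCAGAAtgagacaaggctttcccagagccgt
The matches began 154 bases before the start site in Socs3, 210 in Per1, 15 in Csf2rb2, 88 in Tgtp1, 244 in Tnfrsf1a, and 83 in Apold1. Cebpd and Csf2rb were not among the promoters matched.

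Of 18 glucocorticoid-responsive genes tested, 5 rose, 13 did not pass, and none fell, against 0.605% of all genes that rose. The median log2 fold change was 0.367, and 16 of the 18 were above 0, all but Hsd11b1 and Nr3c1, where 48.7% of all genes were. Ddit4 (mm39 chr10:59785491-59787656), which restrains mTORC1 and thereby protein synthesis, was at 6.32, 5.68, 3.68, and 5.10 FPKM in control mice and 14.6, 17.0, 17.5, and 14.5 FPKM in KPC mice. All 4 KPC mice were more than 2-fold above the highest control mouse, and the log2 fold change was 1.62 (SE 0.13, edgeR adjusted p = 2.37e-05). Arrdc2, an arrestin-domain gene, was at 13.7, 12.9, 16.2, and 20.5 FPKM in control and 32.5, 43.4, 38.1, and 26.6 FPKM in KPC mice (log2 fold change 1.15, SE 0.15, edgeR adjusted p = 0.0018). Klf15, a transcription factor that promotes amino acid breakdown in muscle, rose from 13.2 ± 0.897 to 20.0 ± 3.12 FPKM (SD, n = 4; log2 fold change 0.59, SE 0.10, edgeR adjusted p = 0.0118).

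Errfi1, a feedback inhibitor of the EGF receptor, changed by 0.44 (edgeR adjusted p = 0.0338), and the clock gene Per1 by 0.63 (edgeR adjusted p = 0.0346). The classical targets Fkbp5 and Tsc22d3 had log2 fold changes of 0.29 and 0.15 with overlapping groups and did not pass (edgeR adjusted p = 0.429 and 0.377). The number of genes on the list that rose was 5, but only 2 without WT KPC replicate 2, and 3 without WT control replicate 2 or without FoxP1SkmKO KPC replicate 1. The letters of a palindromic glucocorticoid response element, the same on both strands, were found in 3 of the 62 promoters of genes that rose (4.84%), in none of the 45 of genes that fell, and in 0.445% of promoters of all tested genes. The 3 matches are shown as above, again as letters and not as sites, and none of the 3 genes was on the list.
Slc10a6, chr5:103629531-103629590, minus strand: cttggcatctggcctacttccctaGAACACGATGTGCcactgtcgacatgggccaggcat
Map3k6, chr4:133240613-133240672, plus strand: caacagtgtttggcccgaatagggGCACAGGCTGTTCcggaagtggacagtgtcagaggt
Kcna5, chr6:126535579-126535638, minus strand: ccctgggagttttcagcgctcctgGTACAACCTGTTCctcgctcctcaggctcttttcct
Slc10a6, a steroid sulfate transporter, had a log2 fold change of 1.22 (edgeR adjusted p = 0.0462), Map3k6, a stress-activated kinase, 0.998 (edgeR adjusted p = 0.0225), and Kcna5, a potassium channel, 0.65 (edgeR adjusted p = 0.0225).

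Of 25 FoxO factors and atrophy genes tested, 3 rose, 22 did not pass, and none fell, against 0.605% of all genes that rose. The median log2 fold change was 0.187, with 22 of 25 above 0, and 1 rose without WT control replicate 2, WT KPC replicate 2, FoxP1SkmKO control replicate 1, or FoxP1SkmKO KPC replicate 1. Gadd45g, a stress-induced regulator of the cell cycle and DNA demethylation, was at 32.0, 41.8, 29.2, and 28.6 FPKM in control mice and 70.0, 78.2, 45.5, and 67.2 FPKM in KPC mice (log2 fold change 0.98, SE 0.11, edgeR adjusted p = 0.000665). Eif4ebp1, which holds back cap-dependent translation, rose by 0.47 (edgeR adjusted p = 0.0225), and Depp1, a FoxO target, by 1.25 (edgeR adjusted p = 0.0407). Depp1 was at 1.91, 1.66, 0.978, and 2.24 FPKM in control and 2.90, 2.51, 6.66, and 4.96 FPKM in KPC mice, and passed in only 1 of the 8 fits that left out 1 library. The ubiquitin ligases that mark atrophying muscle did not pass: Fbxo32 (atrogin-1) was at 28.4, 13.7, 21.7, and 20.9 FPKM in control and 23.2, 26.8, 51.1, and 22.9 FPKM in KPC mice (log2 fold change 0.52, edgeR adjusted p = 0.349), and Trim63 (MuRF1) had a log2 fold change of 0.23 (edgeR adjusted p = 0.394). None of the 47 proteasome genes or the 36 genes of autophagy and mitophagy tested passed, which is near the 1.05% called over all genes and so says little of these lists, and their medians were -0.00857 and 0.0292.

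In the list of TNF and NF-kB signaling, 2 of 27 rose and none fell, with a median of 0.155, but none rose without WT control replicate 1 and 1 rose without WT control replicate 2, WT KPC replicate 2, or FoxP1SkmKO control replicate 1. Over all tested genes, 0.605% rose. Bcl3 (mm39 chr7:19542387-19556695), an atypical IκB protein that works with NF-kB p50, was at 0.357, 0.286, 0.700, and 0.614 FPKM in control and 1.54, 1.98, 1.46, and 1.16 FPKM in KPC mice (log2 fold change 1.64, SE 0.28, edgeR adjusted p = 0.011). The WT and FoxP1SkmKO control mice were themselves apart. The tumor effect in FoxP1SkmKO minus that in WT mice was -1.45 on the log2 scale (SE 0.45, edgeR unadjusted p = 0.00593, adjusted p = 0.998). This difference did not pass over all genes, which does not show that the effects were alike. Tnfrsf1a, the main TNF receptor, rose from 6.93 ± 0.336 to 9.15 ± 0.487 FPKM (SD, n = 4; log2 fold change 0.39, SE 0.08, edgeR adjusted p = 0.030), with no overlap, but passed in only 2 of the 8 fits that left out 1 library.

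Interferon-induced and antigen presentation genes lay above the control level in most cases: 23 of 27 had a positive log2 fold change, against 48.7% of all genes. The median was 0.438, and 4 rose with none falling, where 0.605% of all genes rose. In the planned fit to all 48 libraries, none of 28 tested passed at CT38. H2-D1, a class I major histocompatibility heavy chain, was at 38.6, 32.5, 25.7, and 25.6 FPKM in control and 39.5, 52.7, 42.4, and 40.2 FPKM in KPC mice (log2 fold change 0.52, SE 0.10, edgeR adjusted p = 0.019). Its paralog H2-K1 (0.52, edgeR adjusted p = 0.0421), the peptide transporter Tap1 (0.85, edgeR adjusted p = 0.0494), and the GTPase Iigp1 (1.23, edgeR adjusted p = 0.024) had overlapping groups. Reads of H2-D1 and H2-K1 may be shared between the 2 genes and their class I relatives. None to 2 of the list rose when WT control replicate 2, WT KPC replicate 2, or any 1 of the 4 FoxP1SkmKO libraries was left out, and 10 rose without WT KPC replicate 1.

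Tgtp1, another interferon-induced GTPase with near-identical copies, changed by 1.85 (edgeR adjusted p = 0.0246). C4b, a complement component, was at 0.569, 1.10, 0.831, and 0.613 FPKM in control and 1.10, 2.47, 3.68, and 1.69 FPKM in KPC mice (log2 fold change 1.50, edgeR adjusted p = 0.0267), the only 1 of 13 acute-phase and complement genes to rise. The calls of Tgtp1 and C4b were lost in most fits that left out 1 library. Ccl8, a monocyte chemokine, had a log2 fold change of 2.99 (SE 0.64, edgeR adjusted p = 0.0384) on 0 to 0.678 FPKM in control and 1.32 to 3.52 FPKM in KPC mice. Markers of leukocytes stood beside these genes as follows. Summed neutrophil markers were at 0.114 to 0.755 FPKM in control and 1.94 to 3.46 FPKM in KPC mice, with Ly6g, Mpo, and Elane at 0 in all 8 libraries. Only 1 of the 11 neutrophil markers had counts high enough to test, and it did not pass. Macrophage markers summed to 18.9 to 28.7 FPKM in control and 25.8 to 42.3 FPKM in KPC mice, with none of 11 tested passing. The part of these cells in the results was not tested.

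Of 10 capillary endothelium markers 1 rose, Vwf, and none fell, with a median log2 fold change of 0.158 and 4 below 0. Some called genes outside that list are also known from endothelium. Klf2, a transcription factor of endothelium under flow, was at 17.4, 13.1, 15.2, and 16.5 FPKM in control and 22.6, 25.2, 30.8, and 29.2 FPKM in KPC mice (log2 fold change 0.78, SE 0.10, edgeR adjusted p = 0.00102). It was the only 1 of 23 immediate early genes to pass, though 20 of the 23 were above 0, where 48.7% of all genes were, with a median of 0.234. S1pr1, the sphingosine 1-phosphate receptor of endothelium and lymphocytes, rose from 9.38 ± 0.25 to 17.1 ± 3.08 FPKM (SD, n = 4; log2 fold change 0.86, SE 0.11, edgeR adjusted p = 0.00104). Plvap, a component of endothelial fenestrae, rose by 0.88 (edgeR adjusted p = 0.00155), Vwf, von Willebrand factor, by 0.60 (edgeR adjusted p = 0.00666), and Selp, P-selectin, by 1.38 (edgeR adjusted p = 0.0421). The call of Selp was lost in most fits that left out 1 library. Apold1, an immediate response gene of endothelium, was at 0.397, 0.234, 0.615, and 0.410 FPKM in control and 0.758, 1.23, 2.35, and 1.97 FPKM in KPC mice (log2 fold change 1.88, SE 0.23, edgeR adjusted p = 0.00102). Klf2 was on the list of immediate early genes, Apold1 and Selp were among the largest increases, and S1pr1 and Plvap were picked after their values were seen, so these genes are no test of endothelium as a whole. The 10 markers summed to 92.9 to 100.7 FPKM in control and 97.6 to 111.7 FPKM in KPC mice.

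Collagens were the list with the most members that fell. Of 34 collagen genes tested, 11 fell and none rose, against 0.443% of all genes that fell. Of the 34, 32 had a log2 fold change below 0, against 7289 of all 14216 genes, and the median was -0.511. Col3a1 (mm39 chr1:45350698-45388866), a fibrillar collagen of soft tissue, was at 11.6, 9.93, 8.41, and 13.9 FPKM in control mice and 5.29, 4.07, 3.99, and 4.65 FPKM in KPC mice. Every KPC mouse was below every control mouse, and the log2 fold change was -1.29 (SE 0.14, edgeR adjusted p = 0.000286). Col1a1 (mm39 chr11:94827050-94843868), a chain of type I collagen, was at 24.8, 11.6, 8.40, and 12.9 FPKM in control and 6.04, 4.84, 4.99, and 4.89 FPKM in KPC mice, with the KPC mice close together and WT control replicate 1 far above the rest (log2 fold change -1.44, SE 0.21, edgeR adjusted p = 0.00416). Its partner chain Col1a2 changed by -1.32 (edgeR adjusted p = 0.00558), the fibril-regulating Col5a1 by -0.80 (edgeR adjusted p = 0.00666), and Col6a1, of the type VI collagen around fibers, by -0.78 (edgeR adjusted p = 0.0109). Also called were Col5a2, Col6a2, Col6a3, Col11a1, Col12a1, and Col4a4. Each of Col3a1, Col1a1, Col1a2, and Col5a1 passed in all 8 fits that left out 1 library, while the number of collagens that fell was 5 without WT control replicate 1, without WT KPC replicate 2, or without FoxP1SkmKO KPC replicate 1.

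Of 25 other matrix and matricellular genes, 6 fell and none rose, with a median of -0.418, against 0.443% of all genes that fell. Thbs4, a thrombospondin of tendon and muscle matrix, was at 24.9, 16.5, 16.5, and 20.6 FPKM in control and 10.1, 8.41, 9.50, and 12.7 FPKM in KPC mice (log2 fold change -0.96, SE 0.14, edgeR adjusted p = 0.00474). Mmp2, a gelatinase of fibroblasts, was at 5.05, 3.80, 3.24, and 5.17 FPKM in control and 2.37, 1.99, 1.75, and 2.47 FPKM in KPC mice (log2 fold change -1.02, edgeR adjusted p = 0.00742). The small proteoglycans Dcn and Lum changed by -0.78 and -0.93 (edgeR adjusted p = 0.0165 and 0.0323), and Postn, periostin, by -1.30 (edgeR adjusted p = 0.027). Without WT KPC replicate 2 only 2 of the list fell, and 3 fell without WT control replicate 1 or without FoxP1SkmKO KPC replicate 1.

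The strongest decreases were in genes of low level. Mfap4 (mm39 chr11:61376257-61379726), a microfibril protein, was at 2.18, 1.37, 0.391, and 1.20 FPKM in control and 0.224, 0.258, 0.157, and 0.159 FPKM in KPC mice (log2 fold change -2.64, SE 0.39, edgeR adjusted p = 0.00485). Angptl7, a secreted angiopoietin-like protein, ranged from 0.723 to 6.48 FPKM in control and 0.316 to 0.713 FPKM in KPC mice (-2.38, edgeR adjusted p = 0.0145). Tnmd and Kera, both genes of tendon and dense connective tissue, changed by -2.21 and -2.22 (edgeR adjusted p = 0.0172 and 0.0274). The 4 tendon markers (Scx, Tnmd, Mkx, and Fmod) summed to 29.0, 11.4, 7.02, and 13.7 FPKM in control mice and 6.80, 5.50, 5.93, and 7.95 FPKM in KPC mice. Tendon markers thus overlapped between the arms, through FoxP1SkmKO control replicate 1, and their part in the matrix result was not tested. Markers of fibro-adipogenic progenitors, the fibroblasts of muscle, summed to 52.6 to 88.7 FPKM in control and 56.1 to 61.3 FPKM in KPC mice. Of 8 tested, 7 were below 0, with a median log2 fold change of -0.676. Pdgfra fell, as did Col1a1 and Dcn, which are also on the collagen and matrix lists above. Ly6a, which endothelium also expresses, rose by 0.77 (edgeR adjusted p = 0.00394). Ly6a was at 15.6 to 21.1 FPKM in control and 26.4 to 36.8 FPKM in KPC mice, a large part of the sums, so the sums do not follow the other markers. In the planned fit to all 48 libraries, 2 collagens and 1 matrix gene fell at CT38. With WT control replicate 1 and FoxP1SkmKO control replicate 2 both left out, 3 collagens and 1 matrix gene fell, Col3a1 and Col1a1 changed by -1.03 and -0.94 (edgeR adjusted p = 0.000148 and 0.000304), and Mfap4 was at -2.03 (edgeR adjusted p = 0.0565), so that Mfap4 no longer passed.

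**Figure D3:**
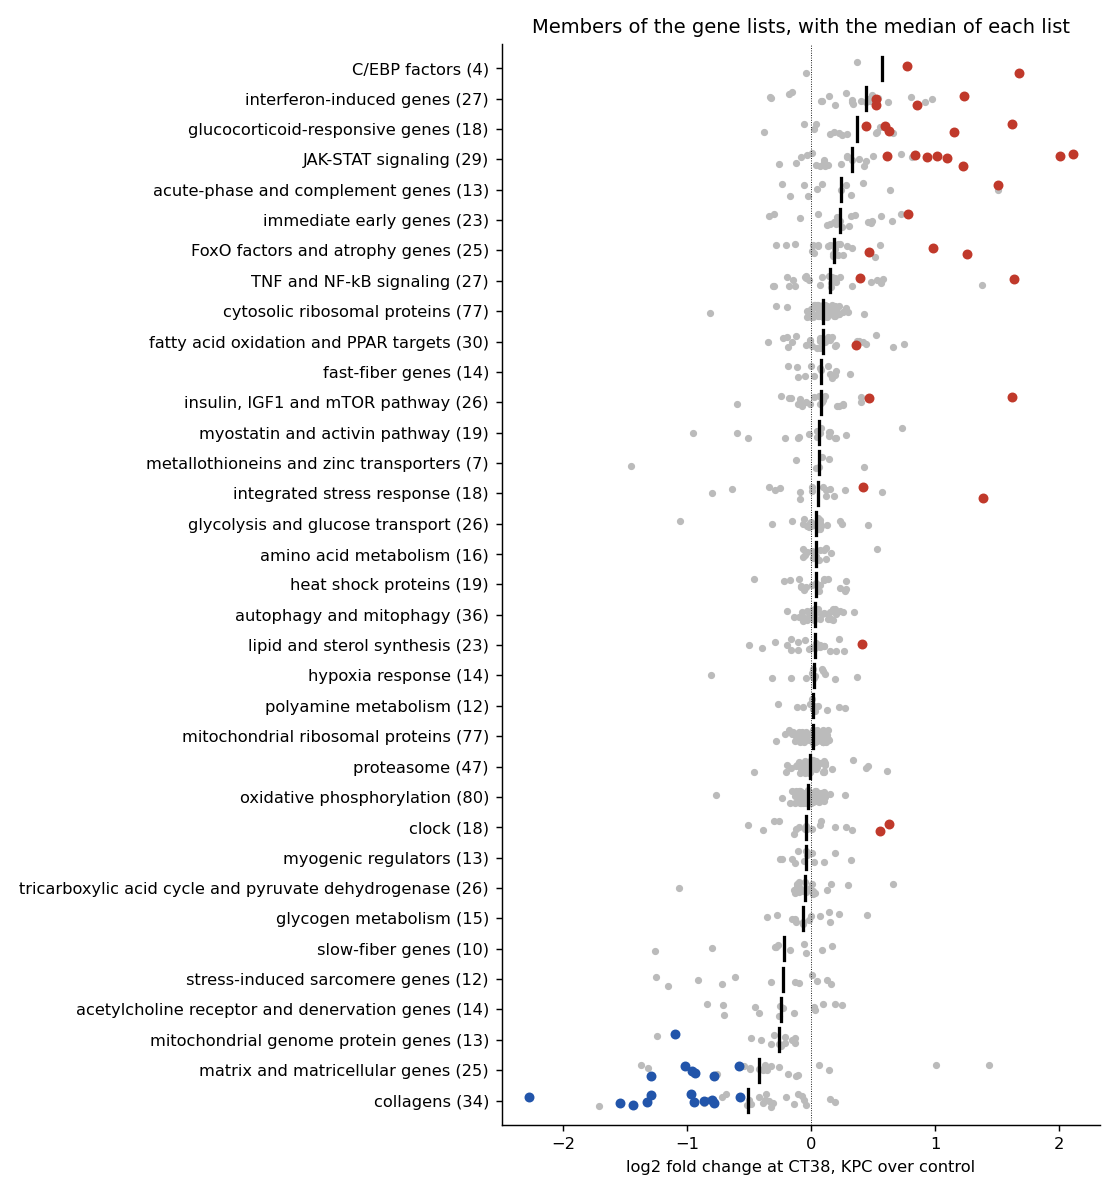
Log2 fold change at CT38 (x axis) of the tested members of each gene list (rows, number tested in brackets), grey for members that did not pass, red for those that rose and blue for those that fell, with a black bar at the list's median. JAK-STAT, glucocorticoid-responsive, and interferon-induced lists lie to the right with 8, 5, and 4 members risen, and collagens and matrix genes to the left with 11 and 6 fallen.

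No gene of oxidative phosphorylation (80 tested), the tricarboxylic acid cycle (26), glycolysis (26), glycogen metabolism (15), cytosolic ribosomal proteins (77), mitochondrial ribosomal proteins (77), fast fibers (14), slow fibers (10), or the acetylcholine receptor and denervation list (14) passed the test, where 1.05% of all genes did. The medians of these lists lay between -0.242 and 0.0951. Their signs were not always even. Of the cytosolic ribosomal protein genes, 70 of 77 were above 0, where 48.7% of all genes were. KPC mice lay wholly above control mice for 7 of the 77, against 3.04% of all genes. Of the tricarboxylic acid cycle genes 18 of 26, and of the slow-fiber genes 8 of 10, were below 0. Lpl, lipoprotein lipase, which takes up circulating fat, was the only 1 of 30 fatty acid genes to rise (0.36, edgeR adjusted p = 0.0421), and Fdft1, squalene synthase, the only 1 of 23 lipid and sterol synthesis genes (0.41, edgeR adjusted p = 0.024). Of the integrated stress response, the amino acid transporter chain Slc3a2 (0.42, edgeR adjusted p = 0.0172) and the glutathione-degrading Chac1 (1.39, edgeR adjusted p = 0.0435) rose among 18 tested, and the groups overlapped for Chac1, with WT control replicate 1 at 20.5 FPKM. The calls of Lpl and Chac1 were lost in most fits that left out 1 library.

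All 13 protein genes of the mitochondrial genome were below 0, with a median log2 fold change of -0.261 (-0.485 in WT and -0.0785 in FoxP1SkmKO mice), and mt-Co3 alone passed. Subunit 3 of cytochrome c oxidase, mt-Co3, was at 1408, 1453, 616, and 1471 FPKM in control and 417, 552, 551, and 813 FPKM in KPC mice (log2 fold change -1.10, SE 0.24, edgeR adjusted p = 0.0399). FoxP1SkmKO control replicate 1 lay within the KPC range, and nuclear copies of mitochondrial sequence can take reads from this gene, so its value is uncertain.

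Of 18 clock genes tested at CT38, 2 rose, Per1 and Nfil3, none fell, and the median log2 fold change was -0.0394. Other planned fits tested 19 and differed: 3 rose and 1 fell by DESeq2, 1 rose and 1 fell with all 48 libraries, and 4 rose and 3 fell with no filter on low counts. With RLE scaling, the replicate block, or the gene length trend removed, 2, 1, and 1 of 18 rose and none fell. Per1, a repressor of the clock loop that also answers glucocorticoids, was at 7.38, 7.17, 8.07, and 11.4 FPKM in control and 11.8, 14.9, 14.9, and 11.0 FPKM in KPC mice, so that FoxP1SkmKO control replicate 2 and FoxP1SkmKO KPC replicate 2 overlapped. Nfil3, the repressor that opposes the D-box activators, was at 16.9, 16.5, 15.6, and 13.2 FPKM in control and 18.1, 27.7, 23.1, and 22.8 FPKM in KPC mice (log2 fold change 0.55, SE 0.11, edgeR adjusted p = 0.0289). Per1 passed in 2 and Nfil3 in 1 of the 8 fits that left out 1 library. The 2 calls among 18 stand against 0.605% of all genes that rose, and none rose without WT control replicate 2, WT KPC replicate 2, FoxP1SkmKO control replicate 1, or FoxP1SkmKO KPC replicate 1. Of the activators, Arntl (Bmal1) was at 0.20 (SE 0.18, edgeR adjusted p = 0.71) and Clock by -0.39 (SE 0.12, edgeR adjusted p = 0.153). Among the repressors, Nr1d1 was at -0.51 (SE 0.15, edgeR adjusted p = 0.137), Nr1d2 at -0.26 (SE 0.07, edgeR adjusted p = 0.0996), Cry1 at 0.07 (SE 0.10), Cry2 at 0.01 (SE 0.07), Per2 at -0.10 (SE 0.13), Per3 at -0.12 (SE 0.09), Bhlhe40 at 0.33 (SE 0.09), Bhlhe41 at -0.30 (SE 0.13), and Ciart at 0.08 (SE 0.28), all log2 fold changes that did not pass. The outputs Dbp, Tef, and Hlf were at -0.04 (SE 0.14), -0.04 (SE 0.07), and -0.14 (SE 0.09), and Rora, which activates Arntl, at -0.05 (SE 0.10). Libraries of 2 mice a group limit these comparisons, and a value that did not pass does not show that the arms were alike. E-boxes, CACGTG on either strand, were present in 6.45% of promoters of genes that rose and 4.44% of those that fell, against 11.7% of promoters of all tested genes.

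The tumor effect was then fitted within each genotype, to ask whether deletion of Foxp1 in fibers altered it at this time. In WT mice 16 genes (0.113% of 14216) were higher and 11 (0.0774%) lower, and in FoxP1SkmKO mice 8 (0.0563%) were higher and 1 (0.00703%) lower, with 2 mice against 2 in each. Csf2rb, Csf2rb2, Cebpd, Ddit4, Fam110d, and Col3a1 were called in both. These counts rest on single mice, since 188 genes were called in FoxP1SkmKO mice without FoxP1SkmKO control replicate 1 and 7 in WT mice without WT control replicate 1. Each of these fits leaves 1 mouse in a group. Without FoxP1SkmKO control replicate 1, that mouse is replicate 2, the library described above as far from the others. With all 8 libraries, Cebpd changed by 1.70 in WT and 1.65 in FoxP1SkmKO mice, Ddit4 by 1.39 and 1.85, and Col3a1 by -1.20 and -1.38. Over the 86 genes that rose in the joint fit the median log2 fold change was 0.700 in WT and 0.683 in FoxP1SkmKO mice, and over the 63 that fell -0.796 and -0.753, with every one of the 149 in the same direction in both, which the choice of these genes partly fixes.

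The difference between genotypes itself was called for none of the 14216 genes by edgeR (0%), with 512 at an unadjusted p under 0.05, and for 1 gene by DESeq2. Without FoxP1SkmKO control replicate 1 it was called for 20 genes, 10 higher and 10 lower, and without any other single library for 0 to 3. The fit without FoxP1SkmKO control replicate 1 rests on replicate 2 as the only mouse of that group, and this library stood apart from the others. In the edgeR fit to all 8 libraries, the lowest adjusted p was that of Csrp3, a Z-disc protein of stressed and slow muscle, at 0.177. Csrp3 was at 6.20 and 9.97 FPKM in WT control, 2.10 and 2.32 in WT KPC, 1.51 and 1.79 in FoxP1SkmKO control, and 2.28 and 1.86 in FoxP1SkmKO KPC mice, so that the WT control mice alone were high. Bcl3 changed by 2.43 in WT and 0.98 in FoxP1SkmKO mice and Depp1 by 0.59 and 1.83, and neither difference passed.

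**Figure D4:**
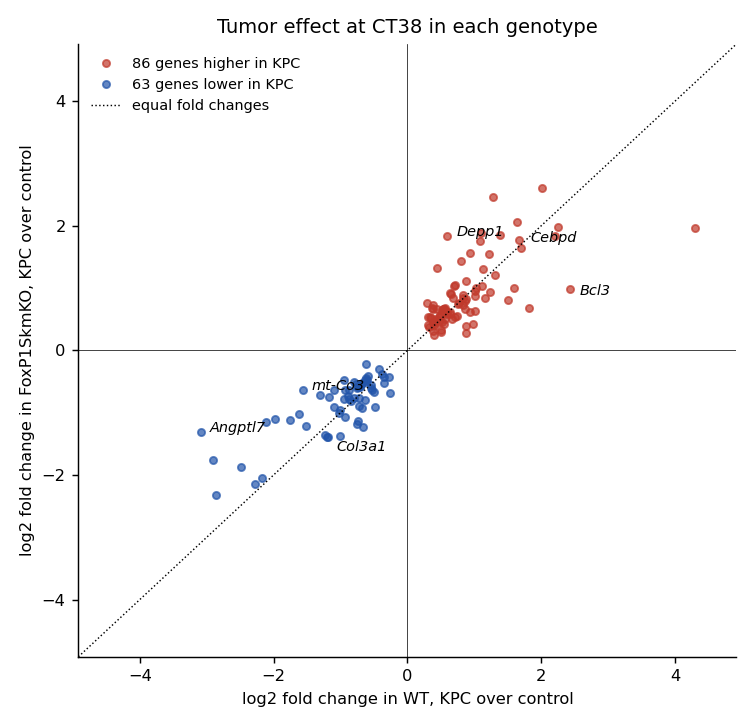
Log2 fold change of KPC over control at CT38 in WT (x axis) and FoxP1SkmKO mice (y axis) for the 149 called genes, red for the 86 higher and blue for the 63 lower, with the line of equal fold changes. All points lie in the lower left or upper right quadrant, which the selection of genes on the joint fit partly fixes.

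The effect at CT38 was last compared with the effect in the 40 mice taken at the other 5 times, which share no animal with it. Averaged over those times, 266 of 15637 genes (1.7%) were higher and 237 (1.52%) lower in KPC mice by the fit to all 48 libraries. Of the 86 genes higher at CT38, 85 were above 0 in that average and 34 were called, with a median log2 fold change of 0.182, and of the 63 lower at CT38, 59 were below 0 and 38 were called, with a median of -0.387. At CT38 in the same fit the medians were 0.763 and -0.795, but these genes were selected on the CT38 mice, so the sizes at CT38 and at the other times cannot be set against each other. By time, the 86 genes had medians of 0.421 at CT18, 0.169 at CT22, 0.0764 at CT26, 0.207 at CT30, and 0.177 at CT34, and the 63 genes had medians of -0.491, -0.0405, -0.294, -0.570, and -0.558.

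The test of CT38 against the mean of the other 5 times called 1 gene, Cebpd, of 15637 (0.0064%), with 1619 at an unadjusted p under 0.05. Cebpd had a log2 fold change of 1.68 (SE 0.18) at CT38 and of 0.74 at CT18, 0.53 at CT22, 0.27 at CT26, 0.70 at CT30, and -0.30 at CT34 (SE 0.18 to 0.19). The difference from the other times was 1.29 (SE 0.20, edgeR adjusted p = 0.00325). Cebpd was thus raised in tumor-bearing mice at other times too, on average by 0.39 (SE 0.08, edgeR adjusted p = 0.00787), but by less. Without FoxP1SkmKO control replicate 1 the difference was 1.24 with an edgeR adjusted p = 0.0599, and over all other fits tried its adjusted p stayed under 0.05.

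Ddit4 had log2 fold changes of 0.50 (SE 0.30), 0.14 (SE 0.30), -0.05 (SE 0.32), 0.25 (SE 0.31), and 0.16 (SE 0.29) at CT18 to CT34 against 1.63 (SE 0.30) at CT38, a difference of 1.43 (SE 0.33, edgeR adjusted p = 0.137). For S1pr1 the difference was 0.73 (SE 0.14, edgeR adjusted p = 0.052). Csf2rb was above 0 at every time, from 0.45 at CT26 to 2.12 at CT38, and in the average of the other times it was called (0.85, SE 0.14, edgeR adjusted p = 0.000569). The receptor chain Il4ra at 0.55 (edgeR adjusted p = 0.00042), the kinase Jak3 at 0.56 (edgeR adjusted p = 9.33e-05), and Bcl3 at 0.70 (edgeR adjusted p = 0.000895) were also called in that average. Col1a1 was at 0.15 (SE 0.35) at CT22 and at -1.33 (SE 0.36) at CT30, close to its -1.43 (SE 0.37) at CT38, and Mfap4 ranged from -0.04 (SE 0.60) at CT18 to -2.59 (SE 0.63) at CT38. Their differences between CT38 and the other times, -0.75 (SE 0.40) and -1.84 (SE 0.70), did not pass. The list medians at the other times were 0.145 for JAK-STAT, 0.125 for glucocorticoid-responsive, 0.222 for interferon-induced, -0.327 for collagen, and -0.171 for matrix genes.

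**Figure D5:**
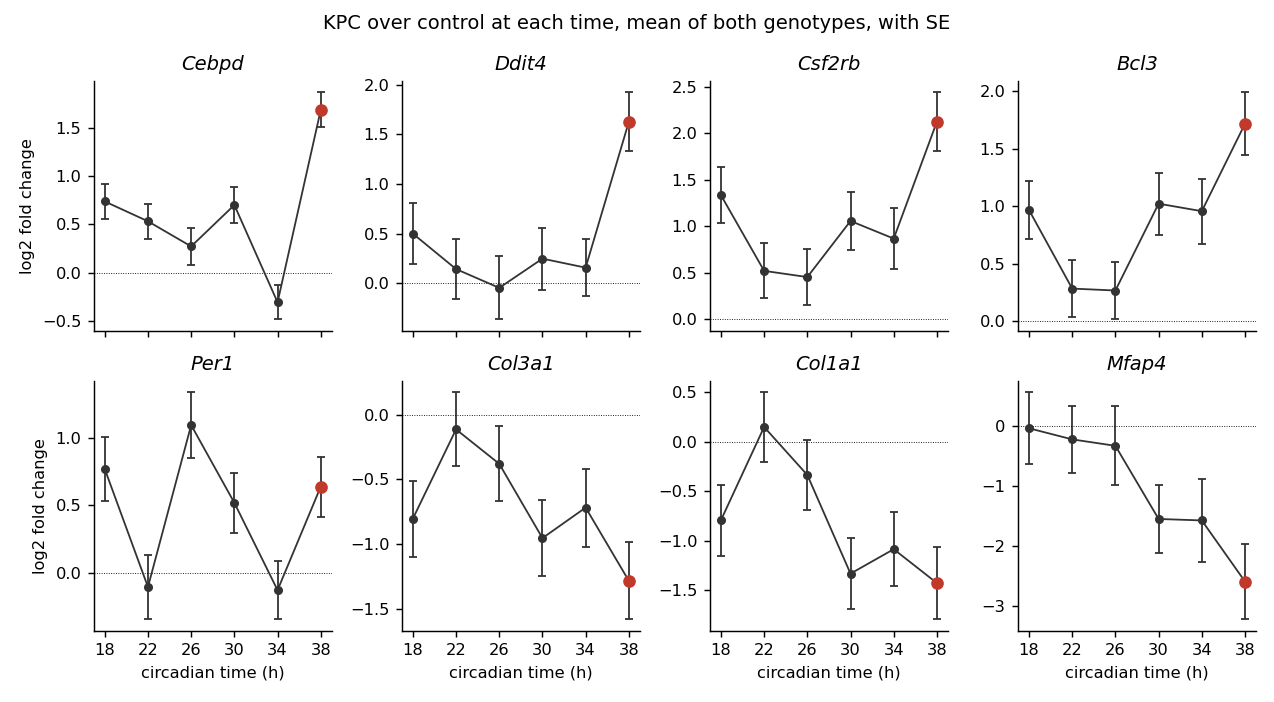
Log2 fold change of KPC over control (y axis, mean of both genotypes, bars are SE from the fit to 48 libraries) at each circadian time in hours (x axis) for 8 genes, with CT38 in red. Cebpd and Ddit4 are highest at CT38, whereas Col1a1 is nearly as low at CT30, and Per1 is higher at CT26 than at CT38.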

How the data were processed

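RNA was taken from the tibialis anterior muscle of 48 mice, 1 library a mouse and 2 mice per genotype, treatment, and time, and poly-A mRNA was sequenced on a NovaSeq. The authors deposited whole-number gene counts for each library and a table of FPKM values on genes of mm39. The paper names STAR and HTSeq for these files, whereas the submitters' processing notes list HISAT2 2.0.5 and DESeq2 1.20.0, and whether counting used strand is not given in the sources used here. The deposited tables also hold fold changes and p-values of the authors' own comparisons, which were not used.

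Samples were grouped by the labels. Genes that passed filterByExpr over the 4 groups at CT38 (14216) were scaled by TMM and tested with edgeR 4.0.16 in R 4.3.3 by the quasi-likelihood test with genotype as a covariate, and p-values were Benjamini-Hochberg adjusted over all genes tested. SE is the absolute log2 fold change divided by the square root of F. Effects within each genotype and their difference came from a fit with 1 coefficient per group, and effects at other times from the same kind of fit to all 48 libraries (15637 genes). The deposited counts set the tests and the FPKM values are printed as levels. Totals of 15318470 to 16993357 counts leave genes under about 1 FPKM with wide errors. With 2 mice a group, p-values rest on the spread between these mice, drawn toward the spread seen over all genes. The weight of that shared spread was 9.67 degrees of freedom in the joint fit. In the joint fit, any difference of the tumor effect between genotypes also counts as spread.

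The members and lists were chosen with earlier results of these data known. The named genes were Foxp1, the 12 largest increases and 12 largest decreases that were called, were separated between the arms, and exceeded 0 in average log2 CPM, up to 4 called members of each list, the clock genes (1 of them is not reported here), and up to 6 genes per direction for the differences. Il4ra, Osmr, Socs3, Cish, Plvap, S1pr1, Vwf, Ly6a, Lum, Col6a1, Ccl8, Slc10a6, Map3k6, Kcna5, and genes that did not pass were named outside this rule, after their values were seen. Some genes that met the rule are described only here. These are the increases Cmah (log2 fold change 2.32) and ENSMUSG00000120992 (1.32) and the decreases Cilp2 (-2.12), Itgbl1 (-1.38), and Ssc5d (-1.29). Fam110d, named above without its value, changed by 1.72. Promoters were matched by symbol to RefSeq sequences of GRCm38.p6, which is not the build of the counts, and 107 of the 149 called genes had one. Alternatives were no filter on low counts, size factors of DESeq2 (RLE), DESeq2 1.42.0, the fit to 48 libraries, a replicate block, removal of a gene length trend, and each library or time left out. Same-numbered mice did not deviate together (correlations of -0.0773 to 0.0685), so the replicate numbers were not used as pairs.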

Additional observations from a re-analysis of the deposited data

Results flagged for a closer look

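In 8 of 130 arms of 4 libraries tested, 1 library lay far from the other 3, a share that chance alone gives in about 1 of 20. Among KPC mice, Col1a1 was at 6.042 FPKM in WT KPC replicate 1, above the other 3, Dcn was at 10.05 FPKM in WT KPC replicate 2, below them, and Cebpb was at 53.41 FPKM in FoxP1SkmKO KPC replicate 2, below them. Among control mice, WT control replicate 1 was the highest for the secreted growth factor gene Gdf10 at 0.7582 FPKM, for Chac1 at 20.49 FPKM, and for the summed Schwann cell markers at 41.95 FPKM. FoxP1SkmKO control replicate 1 was the lowest for mt-Co3 at 615.8 FPKM, and FoxP1SkmKO control replicate 2 the highest for the summed hepatocyte markers at 10.99 FPKM. The tumor effect on Cebpd at CT38 exceeded its mean at the other 5 times by 1.295 on the log2 scale, by the edgeR test of that difference. Why these values stood apart was not tested.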

How the results depend on the processing

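Against 149 genes in the joint comparison, 27 in WT mice, 9 in FoxP1SkmKO mice, 0 for the difference between genotypes, and 1 for CT38 against the other times, no filter on low counts gave 628, 287, 340, 77, and 277. The estimated prior degrees of freedom became infinite in that setting. DESeq2 gave 218 in the joint comparison, 49, 36, 1, and 21. The fit to all 48 libraries gave 96 (75 higher and 21 lower), 4, and 1 in the first 3, and RLE scaling gave 14 in FoxP1SkmKO mice. Leaving out 1 library gave 46 to 173, 7 to 51, 2 to 188, 0 to 20, and 0 to 7. Leaving out CT18, CT30, or CT34 gave 2, 3, and 4 for CT38 against the other times. Without WT control replicate 1 and FoxP1SkmKO control replicate 2, an alternative chosen after seeing the data, 69 genes were called in the joint comparison, 52 of them among the 149. The causes were not tested.

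With the replicate block, 104 genes were called in the joint comparison, 103 of them among the 149, with 24 in WT, 11 in FoxP1SkmKO mice, 0 for the difference between genotypes, and 1 for CT38 against the other times. Of 68 named genes, 10 lost their call under the block.

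Directions reversed only for genes that did not pass: Rora was at 0.01142 without a gene length trend, Cry2 at -0.003565 without both of those control libraries, and with 1 library left out Rora ranged from -0.1475 to 0.04137, Cry2 from -0.02496 to 0.03231, Foxp1 from -0.07266 to 0.1222, Per2 from -0.2376 to 0.03517, Ciart from -0.04872 to 0.2872, Arntl from -0.02493 to 0.3826, and Dbp from -0.2767 to 0.1016. Of the 544 named-gene values with 1 library left out, 386 kept direction and side of the threshold and 139 lost the call, most often without WT KPC replicate 2. Among the genes that rose, C4b, Chac1, Depp1, ENSMUSG00000120992, Errfi1, H2-K1, Iigp1, Lpl, Nfil3, Per1, Selp, Tap1, Tgtp1, and Tnfrsf1a lost their call in most of these fits. Among those that fell, Col12a1, Itgbl1, mt-Co3, and Postn did. With 2 mice a group, small differences were not detectable.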
